A study of Homo sapiens with 6 samples.

Results

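The integrated stress response gene ATF4 and 9 genes that act with it or below it were followed in U251 cells, a human glioma line, that overexpressed PARK2 or GFP. The 9 others were CEBPB, DDIT3, CHAC1, ASNS, PHGDH, PSAT1, PSPH, SHMT2 and MTHFD2. Members were the probe sets whose single gene symbol in the platform annotation was one of these 10 genes, which gave 17 probe sets of 41091 with 1 gene symbol. Another probe set, shared by PHGDH with other genes, was left out. RNA was measured on 6 Affymetrix arrays, 3 from U251 cells with PARK2 overexpression and 3 from control cells with GFP overexpression. Both were stable lines, made by infection with viral particles and selected with puromycin, so the controls had passed through infection and selection as well. The labels name biological replicates without saying whether they came from separate cultures or infections, so the p-values rest on a spread among arrays that may be technical.

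ATF4 is a basic leucine zipper (bZIP) transcription factor whose translation rises when the initiation factor eIF2 is phosphorylated by kinases that sense amino acid shortage, endoplasmic reticulum stress, haem shortage or double-stranded RNA. It binds with C/EBP proteins to composite C/EBP-ATF response elements and raises genes of amino acid uptake, asparagine synthesis, serine synthesis and mitochondrial folate metabolism. The arrays measured RNA and not protein.

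Promoters were searched for the core of the C/EBP-ATF element, TGATGNAA, because it is the sequence through which ATF4 and C/EBP proteins are known to act on ASNS. The 250 bases before the start were read on both strands, from the RefSeq promoters of GRCh38.p14, which held 12 promoters for 8 of the 10 genes. The core stood before 2 of these 8 genes, ASNS and CHAC1, and before 3.89% of all 27305 genes with a promoter in the table. Since it was chosen for its known place at ASNS, the ASNS match was fixed in advance. The count of 2 therefore cannot be set against that share. The related TGACGNAA, a core like that of the cyclic AMP response element, stood before 0 of the 8 and before 1.77% of all genes. The promoter of ASNS at chr7:97872409-97872658 (minus strand) and that of CHAC1 at chr15:40953221-40953470 (plus strand) are shown because they hold the core, which is in capitals and lies on the reverse strand in CHAC1. The core begins 68 bases before the start in ASNS and 209 bases before it in CHAC1. The second promoter of ASNS in the table did not hold it.
ASNS: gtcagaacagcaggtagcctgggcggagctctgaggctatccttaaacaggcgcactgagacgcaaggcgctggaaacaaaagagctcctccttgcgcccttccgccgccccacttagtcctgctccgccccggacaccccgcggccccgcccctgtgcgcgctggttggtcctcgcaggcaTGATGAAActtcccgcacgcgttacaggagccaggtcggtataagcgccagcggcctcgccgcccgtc
CHAC1: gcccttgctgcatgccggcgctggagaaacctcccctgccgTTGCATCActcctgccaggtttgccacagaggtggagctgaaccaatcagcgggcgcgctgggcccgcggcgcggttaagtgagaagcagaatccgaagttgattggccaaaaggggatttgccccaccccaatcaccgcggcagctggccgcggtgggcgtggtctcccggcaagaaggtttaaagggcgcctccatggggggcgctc
A match is a description of these letters and not a measured binding site. The ASNS and CHAC1 probe sets lay on opposite sides of 0, as given below, but that of CHAC1 was dim and did not pass the test.

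Among the 10 genes, ASNS and DDIT3 were higher and MTHFD2 was lower in PARK2 cells, while the RNA of ATF4 itself did not pass the test. Changes are differences of log2(intensity + 16), PARK2 minus control, where 16 is a pseudocount, and they understate the change of dim probe sets. They were called at an adjusted p of 0.05 from limma, with Benjamini-Hochberg adjustment over all 26603 probe sets tested. Of the 17 member probe sets 16 passed the filter on dim probe sets, of which 2 were higher, 2 lower and 12 not called. That is 25% of the member probe sets, against 20.4% of all probe sets tested (9.10% higher and 11.3% lower). The groups did not overlap for 6 of the 16 (37.5%), against 35.1% of all probe sets. By the brightest probe set, 3 of the 10 genes were called (30%), against 23.7% of the 13720 genes tested. The median change was -0.08 for the 16 and -0.01 for all probe sets tested. With the values as deposited, the shares of the members lie near those of the whole array. With quantile normalization, median centring or a common trimmed mean, 5 of the 16 member probe sets were higher and 2 lower. Of all probe sets 28.3%, 26.5% and 27.7% were called under these 3 scalings, a smaller share than that of the members. The members gained, CEBPB, PHGDH and the brighter probe set of PSAT1, also passed without control replicate 1, with the values as deposited.

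**Figure D1:**
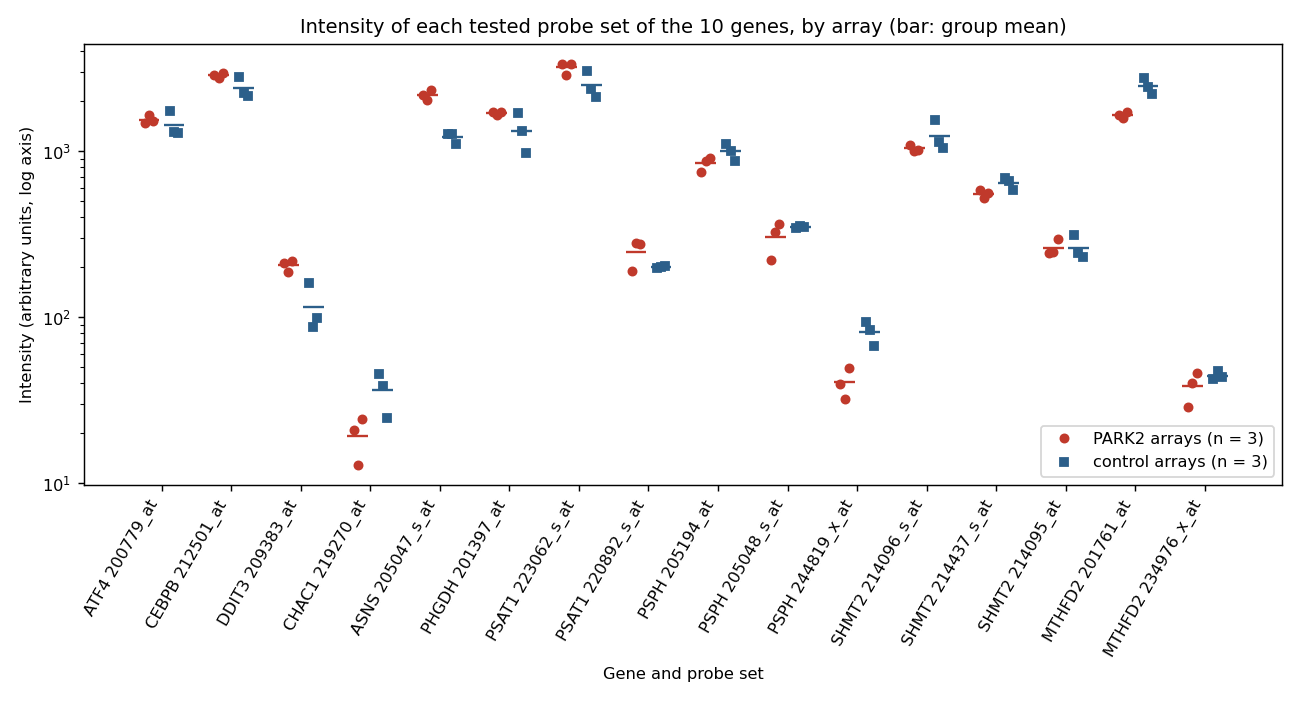
Intensity of each of the 16 tested member probe sets (log axis, arbitrary units), with 1 point per array, PARK2 arrays left of control arrays, and a bar at each group mean of 3. The PARK2 points lie wholly above the control points for DDIT3 and ASNS, and wholly below them for CHAC1, for 1 probe set each of PSPH and SHMT2, and for the brighter probe set of MTHFD2.

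ATF4 was measured by 1 probe set, 200779_at. Its intensity was 1472, 1654 and 1518 in PARK2 replicates 1 to 3, against 1741, 1314 and 1288 in control replicates 1 to 3. Control replicate 1 held the highest value of the 6 arrays, and the groups overlapped. The means were 1547 ± 94.7 in PARK2 cells and 1448 ± 254 in control cells (SD, n = 3 each), a log2 change of 0.11 (SE 0.14, limma's adjusted p 0.667). The 95% confidence interval of the change ran from -0.18 to 0.40. The size rested on single arrays, with 0.03, 0.04 and 0.06 without control replicate 3, control replicate 2 or PARK2 replicate 2, and 0.25 (adjusted p 0.0709) without control replicate 1. With array weights, whose estimate stopped before it converged, the change was 0.24 (adjusted p 0.0282). In bulk RNA, fewer cells expressing a gene and less RNA per cell cannot be told apart.

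CEBPB codes for C/EBP-beta, a bZIP factor that forms dimers with ATF4. Its probe set read 2881, 2782 and 2977 in PARK2 arrays, against 2806, 2257 and 2144 in control arrays. Control replicate 1 lay within the range of the PARK2 arrays, and the other control arrays lay below it. The means were 2880.2 ± 97.5 in PARK2 cells and 2402 ± 354 in control cells (SD, n = 3 each), a change of 0.27 (SE 0.12, limma's adjusted p 0.144). CEBPB passed without control replicate 1 (0.39, adjusted p 0.00484), under all 3 other scalings (adjusted p 0.00139 to 0.0340), with array weights (0.34, adjusted p 0.00131) and after correction for neighbouring genes (0.33, adjusted p 0.00647).

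DDIT3, which codes for the stress-induced C/EBP homologous protein CHOP, rose. Its intensity was 213, 186 and 219 in PARK2 arrays, against 160, 86.8 and 99.1 in control arrays. All 3 PARK2 arrays lay above all 3 control arrays, with control replicate 1 the nearest. The means were 206 ± 17.7 in PARK2 cells and 115 ± 39.0 in control cells (SD, n = 3 each), a ratio of 1.79 and a log2 change of 0.80 (SE 0.19, limma's adjusted p 0.00652). The call held under all 22 other settings tried, with changes of 0.61 to 1.04 and adjusted p from 9.3e-06 to 0.0447.

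CHAC1, a glutathione-degrading enzyme that is induced by ATF4 and CHOP, was dim. It read 20.7, 12.8 and 24.1 in PARK2 arrays, against 45.5, 38.4 and 24.6 in control arrays. The groups did not overlap, but PARK2 replicate 3 and control replicate 3 lay almost together. The means were 19.2 ± 5.80 in PARK2 cells and 36.1 ± 10.6 in control cells (SD, n = 3 each), a change of -0.56 (SE 0.22, limma's adjusted p 0.0836). The size depends on the pseudocount, with -0.88 for 1 and -0.26 for 64 in place of 16. CHAC1 passed the threshold without control replicate 3 (-0.73, adjusted p 0.0387), with array weights (-0.65, adjusted p 0.00448), and when 1 value per gene was tested (-0.56, adjusted p 0.0492 and 0.0378).

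ASNS, asparagine synthetase, makes asparagine from aspartate and glutamine, and it rose in PARK2 cells. Probe set 205047_s_at read 2197, 2032 and 2336 in PARK2 arrays, against 1263, 1265 and 1113 in control arrays. The lowest PARK2 array was far above the highest control array. The means were 2188 ± 152 in PARK2 cells and 1214 ± 86.8 in control cells (SD, n = 3 each), a ratio of 1.80 and a log2 change of 0.84 (SE 0.12, limma's adjusted p 8.0e-05). This change exceeded that of 95.9% of the 13720 genes tested, each by its brightest probe set. A second probe set, 241082_at, was under the filter, with 4.31, 5.88 and 3.07 in PARK2 arrays and 2.68, 0.548 and 1.58 in control arrays. The call of 205047_s_at held under each of the 21 other settings that gave it a value, at 0.65 to 0.89.

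The serine synthesis pathway turns the glycolytic intermediate 3-phosphoglycerate into serine in 3 steps, catalysed by PHGDH, PSAT1 and PSPH. None of their brightest probe sets passed the test in the reported fit. PHGDH and PSAT1 had positive changes (0.39 and 0.36) and PSPH a negative one (-0.24).

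PHGDH, the dehydrogenase of the first step, read 1720.3, 1655 and 1733 in PARK2 arrays, against 1698, 1321 and 971 in control arrays. The PARK2 arrays lay close together, while the control arrays were spread and control replicate 1 lay among the PARK2 values. The means were 1703 ± 41.9 in PARK2 cells and 1330.3 ± 364 in control cells (SD, n = 3 each), a change of 0.39 (SE 0.16, limma's adjusted p 0.104). Blocking on the replicate number gave an adjusted p of 0.0392. PHGDH also passed under all 3 other scalings (adjusted p 0.0183 to 0.0408) and with array weights (adjusted p 0.00457). With 1 probe set per gene it passed (adjusted p 0.0335), and with the mean per gene it did not (adjusted p 0.0661). Without control replicate 1 the change was 0.58 (adjusted p 0.00903), and without control replicate 3 it was 0.18 (adjusted p 0.420).

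PSAT1, the aminotransferase of the second step, had 2 probe sets. The brighter one, 223062_s_at, read 3356, 2898 and 3360.0 in PARK2 arrays, against 3043, 2377 and 2134 in control arrays. The groups overlapped through control replicate 1 and PARK2 replicate 2. The means were 3205 ± 266 in PARK2 cells and 2518 ± 470.4 in control cells (SD, n = 3 each), a change of 0.36 (SE 0.13, limma's adjusted p 0.0687). With the replicate block the adjusted p was 0.0216, and without control replicate 1 the change was 0.50 (adjusted p 0.00409). This probe set also passed under all 3 other scalings (adjusted p 0.00192 to 0.0258) and with array weights (adjusted p 9.0e-04). With 1 probe set per gene it passed (adjusted p 0.0272), and the mean of both probe sets did not (adjusted p 0.0986). After correction for neighbouring genes the change was 0.06 (adjusted p 0.767). The dimmer one, 220892_s_at, had a mean of 248 ± 51.5 in PARK2 cells and 199.8 ± 2.70 in control cells, a change of 0.27 (limma's adjusted p 0.313). In that probe set PARK2 replicate 1, at 188, lay below all 3 control arrays and the other PARK2 arrays lay above them, and without it the change was 0.44 (adjusted p 0.0876).

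PSPH, the phosphatase of the last step, had 3 probe sets that differed in their calls. The brightest, 205194_at, read 750.1, 875 and 910 in PARK2 arrays, against 1109, 1010 and 879 in control arrays, and the groups overlapped. Its means were 845 ± 84.0 in PARK2 cells and 999 ± 115 in control cells (SD, n = 3 each), a change of -0.24 (SE 0.14, limma's adjusted p 0.275), which was -0.15 without PARK2 replicate 1. The next, 205048_s_at, was at -0.22 (adjusted p 0.448), with PARK2 replicate 3 above all control arrays, and it was at -0.01 (adjusted p 0.971) without PARK2 replicate 1. The dim probe set 244819_x_at was lower, with 39.6, 32.2 and 49.5 in PARK2 arrays against 93.4, 83.9 and 66.5 in control arrays. Its change was -0.79 (SE 0.19, limma's adjusted p 0.00633), and the mark _x_at says that it may also read other transcripts. The mean of the 3 probe sets gave -0.41 (adjusted p 0.0408).

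SHMT2 and MTHFD2 are mitochondrial enzymes that take the next steps. SHMT2 splits serine into glycine and a one-carbon unit carried on folate, and MTHFD2 oxidises that unit. The first did not pass the test on any of its probe sets, and the second fell.

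SHMT2 had 3 probe sets. The brightest, 214096_s_at, read 1092, 1003 and 1024 in PARK2 arrays, against 1535, 1132 and 1053 in control arrays. Control replicate 1 was high, and the other control arrays lay near the PARK2 ones. The means were 1039.7 ± 46.4 in PARK2 cells and 1239.9 ± 258 in control cells (SD, n = 3 each), a change of -0.23 (SE 0.15, limma's adjusted p 0.312, 95% confidence interval -0.54 to 0.08). Without control replicate 1 the change was -0.07 (adjusted p 0.637). Probe set 214437_s_at was at -0.22 (adjusted p 0.320), with PARK2 arrays at 524 to 580.1 and control arrays at 587 to 694 and no overlap. With array weights it passed (-0.26, adjusted p 0.0259). Probe set 214095_at had nearly equal means, 262 ± 28.9 in PARK2 cells and 262 ± 45.1 in control cells, a change of 0.01 (adjusted p 0.987).

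MTHFD2 fell on its brighter probe set, 201761_at. It read 1651, 1595 and 1723 in PARK2 arrays, against 2765, 2453 and 2205 in control arrays. The highest PARK2 array lay below the lowest control array. The means were 1656 ± 64.3 in PARK2 cells and 2474 ± 280.3 in control cells (SD, n = 3 each), a ratio of 0.669 and a log2 change of -0.57 (SE 0.12, limma's adjusted p 0.00273). The dim probe set 234976_x_at had a mean of 38.1 ± 8.86 in PARK2 cells and 44.3 ± 2.41 in control cells, a change of -0.17 (adjusted p 0.614), which was -0.04 without PARK2 replicate 1. As the mean of both probe sets, dim and bright with the same weight, MTHFD2 was at -0.37 (adjusted p 0.0576).

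**Figure D2:**
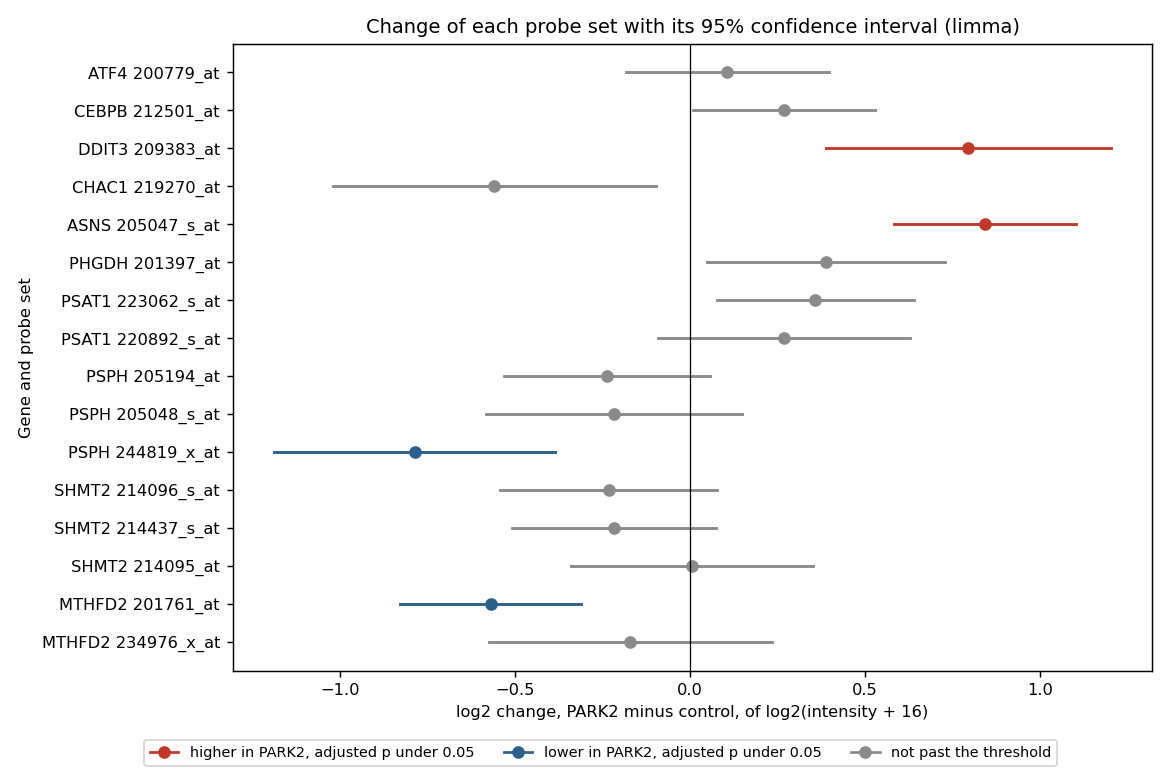
Change of each tested member probe set on the log2 scale (point) with its 95% confidence interval (line), coloured by call. The intervals of ASNS (0.58 to 1.10) and DDIT3 (0.39 to 1.20) lie above 0 and those of MTHFD2 201761_at (-0.83 to -0.31) and PSPH 244819_x_at (-1.19 to -0.39) below it, while that of ATF4 spans it.

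Some of the genes lie among neighbours that shifted the same way. For each gene the median shift of the nearest tested genes, 20 on each side on its chromosome, was taken, with gene order from the RefSeq table. Over all genes this median was 0.03, with 5% of genes below -0.47 and 5% above 0.30. The neighbours of MTHFD2 on chromosome 2 were at -0.35, those of PSAT1 on chromosome 9 at 0.30 and those of ASNS on chromosome 7 at 0.19. For the other 7 genes the neighbours lay between -0.09 and 0.04. With each array's neighbour shift subtracted, ASNS was at 0.65 (limma's adjusted p 7.9e-04), DDIT3 at 0.80 (adjusted p 0.00677), MTHFD2 at -0.22 (adjusted p 0.0403) and PSAT1 at 0.06 (adjusted p 0.767). The copy number of these regions was not tested.

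**Figure D3:**
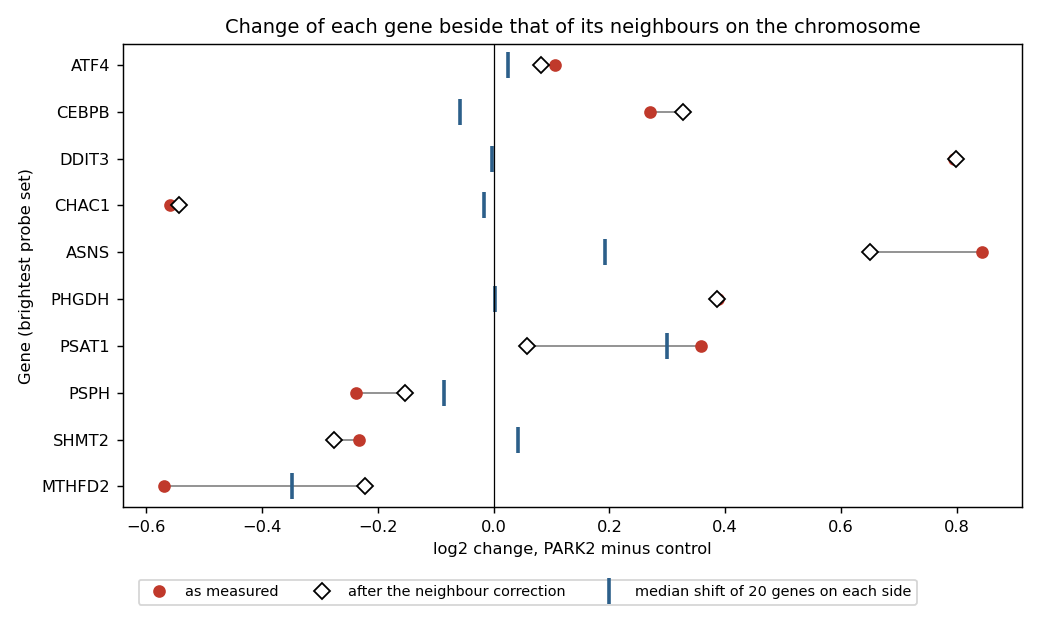
Change of the brightest probe set of each gene as measured (filled circles) and after the neighbour correction (open diamonds), with the median shift of the 20 nearest tested genes on each side (vertical bars), in log2 units. The largest moves toward 0 are those of MTHFD2 (-0.57 as measured, -0.22 after) and PSAT1 (0.36 as measured, 0.06 after).

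Genes upstream of ATF4 and around it were counted on lists of the pathway, with each gene given by its brightest probe set in the same fit. Some tested genes (TRIB3, ATF3, CEBPG, CBS and CTH) are shared between lists, so the counts of the lists overlap. With each gene taken once, the lists held 98 genes besides the members. Of these 85 were tested, with 14 higher and 13 lower. In all 13720 genes tested, 10.8% were higher and 13.0% lower, with a median of 0.00. Of 15 genes for the eIF2 kinases, the eIF2 phosphatase subunits, eIF2 and its exchange factor eIF2B, 0 were higher and 2 lower by limma, with a median of 0.09. At an unadjusted p of 0.05 the counts were 3 and 2. EIF2S3, the gamma subunit of eIF2, fell to 1684 ± 223 in PARK2 cells, against 2757 ± 197 in control cells (SD, n = 3 each), a change of -0.71 (SE 0.13, limma's adjusted p 5.8e-04), and all 3 of its probe sets were lower. EIF2B4, a subunit of the exchange factor, was at 356 ± 16.3 in PARK2 cells and 535 ± 54.5 in control cells (-0.56, adjusted p 0.00971). After the neighbour correction EIF2S3 was at -0.20 (adjusted p 0.211) and EIF2B4 at -0.19 (adjusted p 0.170), and EIF2B4 lost its call without PARK2 replicate 3 (adjusted p 0.0574). None of the genes for the eIF2 kinases passed the test. More genes of this list were higher under other settings: 4 with quantile normalization, 3 with median centring, 4 with a common trimmed mean, 5 with array weights and 4 without control replicate 1.

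Of 14 bZIP partners and regulators of ATF4, 4 were higher and 0 lower by limma (7 and 0 at an unadjusted p of 0.05), with a median of 0.24. CEBPA, a C/EBP family factor, was at 209 ± 25.9 in PARK2 cells and 103 ± 17.5 in control cells (0.93, SE 0.17, limma's adjusted p 7.5e-04). FOS, a subunit of the factor AP-1, was dim, at 47.3 ± 12.4 in PARK2 cells and 20.5 ± 12.7 in control cells (0.84, adjusted p 0.0226). EGLN3, a prolyl hydroxylase, was at 0.57 (adjusted p 0.0290) and CEBPG, a C/EBP protein that pairs with ATF4, at 0.44 (adjusted p 0.0467). CEBPG was also higher on its second probe set, and EGLN3 was not. Calls were lost when single arrays were left out: for FOS without PARK2 replicate 3 or control replicate 3 (adjusted p 0.0985 and 0.119), for EGLN3 without PARK2 replicate 2 or 3 or control replicate 2 (up to 0.215), and for CEBPG without PARK2 replicate 2 or 3 or control replicate 2 or 3 (up to 0.188). With no filter on dim probe sets FOS, EGLN3 and CEBPG all lost their calls (adjusted p 0.120, 0.0753 and 0.0818), which left 1 higher gene. With the replicate block the adjusted p of CEBPG was 0.0541. Under each of the 3 other scalings 7 genes were higher. The count of higher genes on this list ran from 1 to 7 when single arrays were left out, with 7 without control replicate 1 and 1 without PARK2 replicate 3.

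Of 25 other genes known as targets of ATF4, 10 were higher and 3 lower, which is 40% and 12%, with a median of 0.39. GDF15, a stress-induced cytokine, was at 128 ± 16.8 in PARK2 cells and 39.8 ± 19.5 in control cells (1.43, SE 0.23, limma's adjusted p 2.3e-04). That probe set, 221577_x_at, carries the mark _x_at and may also read other transcripts. The second tested probe set of GDF15, which was dim, was at -0.09 (adjusted p 0.847). Another one, under the filter, read 1.17 in PARK2 cells and 2.31 in control cells. CBS, cystathionine beta-synthase, was at 232 ± 32.04 in PARK2 cells and 96.0 ± 15.6 in control cells (1.15, adjusted p 1.1e-04), and both tested probe sets were higher. SLC7A11, the cystine transporter, was at 3112 ± 171 in PARK2 cells and 1676 ± 161 in control cells (0.89, adjusted p 3.2e-05), and was at 0.40 (adjusted p 0.00186) after the neighbour correction. DDIT4, an inhibitor of mTOR signalling, was at 644 ± 82.8 in PARK2 cells and 1815 ± 222 in control cells (-1.47, adjusted p 7.4e-07). Of the 6 amino acid transporter genes on the list 5 were higher, against 10.8% of all genes tested. They were SLC7A11, SLC3A2 (0.65, adjusted p 0.00463), SLC7A5 (0.63, adjusted p 0.00408), SLC38A2 (0.59, adjusted p 0.00103) and SLC1A5 (0.58, adjusted p 0.0153). The other one, SLC1A4, was at 222 ± 14.5 in PARK2 cells and 283 ± 65.1 in control cells (-0.30, adjusted p 0.262). The probe sets of SLC3A2, SLC7A5 and SLC38A2 are marked _s_at or _x_at. For the transporters besides SLC7A11 only the brightest probe set is given, without values for single arrays left out. The transporters were grouped, and those besides SLC7A11 named, after their values were seen, so their share cannot be compared with that of all genes. HERPUD1 (-0.72) and VLDLR (-0.61), named in the same way, were both lower. TRIB3, a pseudokinase that inhibits ATF4, was at -0.35 (adjusted p 0.217), and ATF3, a bZIP gene induced by ATF4, at 0.41 (adjusted p 0.103). The count of higher genes ran from 6 (without PARK2 replicate 3, or without control replicate 2) to 14 (without control replicate 1) when single arrays were left out. It was 13 under each other scaling and 5 when probe sets marked _x_at or _s_at were dropped.

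Of 15 other genes of folate and one-carbon metabolism, 0 were higher and 3 lower by limma (1 and 4 at an unadjusted p of 0.05), with a median of -0.16. Without control replicate 1, 2 were higher, and with quantile normalization 2 were higher and 5 lower. Array weights gave 2 higher and 7 lower, and no filter on dim probe sets gave 2 lower. MTHFD2L, the closest relative of MTHFD2, was at 767 ± 44.6 in PARK2 cells and 1520.5 ± 118 in control cells (-0.97, SE 0.13, limma's adjusted p 2.9e-05). Of its 7 tested probe sets 4 were lower and the other 3 were not called, and the second brightest was at 309 in PARK2 cells and 307 in control cells (0.03, adjusted p 0.942). ALDH1L2, which oxidises the formyl group of mitochondrial folate, was dim, at 17.7 ± 4.90 in PARK2 cells and 37.8 ± 3.19 in control cells (-0.69, adjusted p 0.0213). Its call was lost without PARK2 replicate 2, control replicate 2 or control replicate 3 (adjusted p 0.122, 0.0730 and 0.0561). SLC25A32, the mitochondrial folate carrier, was at 882 ± 77.4 in PARK2 cells and 1382 ± 53.5 in control cells (-0.64, adjusted p 0.00155), and after the neighbour correction it was at -0.20 (adjusted p 0.120). The cytosolic serine hydroxymethyltransferase gene SHMT1 was dim and at -0.15 (adjusted p 0.708), and MTHFD1L, also dim, at -0.29 (adjusted p 0.432). SFXN1, a mitochondrial serine transporter, was at -0.34 (adjusted p 0.128).

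Of 11 genes of glycine cleavage and the methionine cycle, 2 were higher and 1 lower, with a median of -0.07. The higher genes were CBS (1.15) and CTH, which codes for the enzyme after CBS on the way to cysteine. Both were also counted among the other targets of ATF4 above. CTH was at 152 ± 12.8 in PARK2 cells and 104 ± 18.3 in control cells (0.50, SE 0.17, limma's adjusted p 0.0488). Its call was lost with the replicate block (adjusted p 0.0514), after the neighbour correction (0.24, adjusted p 0.214), and when any 1 array other than control replicate 1 was left out (adjusted p 0.0606 to 0.194). The list also held only 1 higher gene with no filter on dim probe sets, with a pseudocount of 1, and with no intensity trend. AHCY, which hydrolyses S-adenosylhomocysteine, was at 947 ± 76.6 in PARK2 cells and 1537 ± 141 in control cells (-0.69, adjusted p 1.0e-03).

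Of 10 genes around glutamine, glutamate, aspartate and proline, 1 was higher and 4 lower, with a median of -0.30. ASRGL1, which cleaves asparagine, was at 67.4 ± 21.6 in PARK2 cells and 168 ± 16.8 in control cells (-1.17, SE 0.19, limma's adjusted p 2.5e-04), and both of its probe sets were lower. GLUD1, glutamate dehydrogenase, was at 616 ± 44.8 in PARK2 cells and 1001 ± 101 in control cells (-0.68, adjusted p 0.00156), though its probe sets may also read the near-identical gene GLUD2. GOT2, the mitochondrial aspartate aminotransferase, was at 990 ± 39.2 in PARK2 cells and 1493.5 ± 249 in control cells (-0.57, adjusted p 0.00601). ASS1, argininosuccinate synthase, was dim, at 56.2 ± 5.90 in PARK2 cells and 30.1 ± 8.91 in control cells (0.66, adjusted p 0.0225). The call of ASS1 was lost without PARK2 replicate 2 or 3 or control replicate 2 or 3 (adjusted p 0.0643 to 0.0977) and after the neighbour correction (0.46, adjusted p 0.0658). With no filter on dim probe sets 0 genes of this list were higher.

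**Figure D4:**
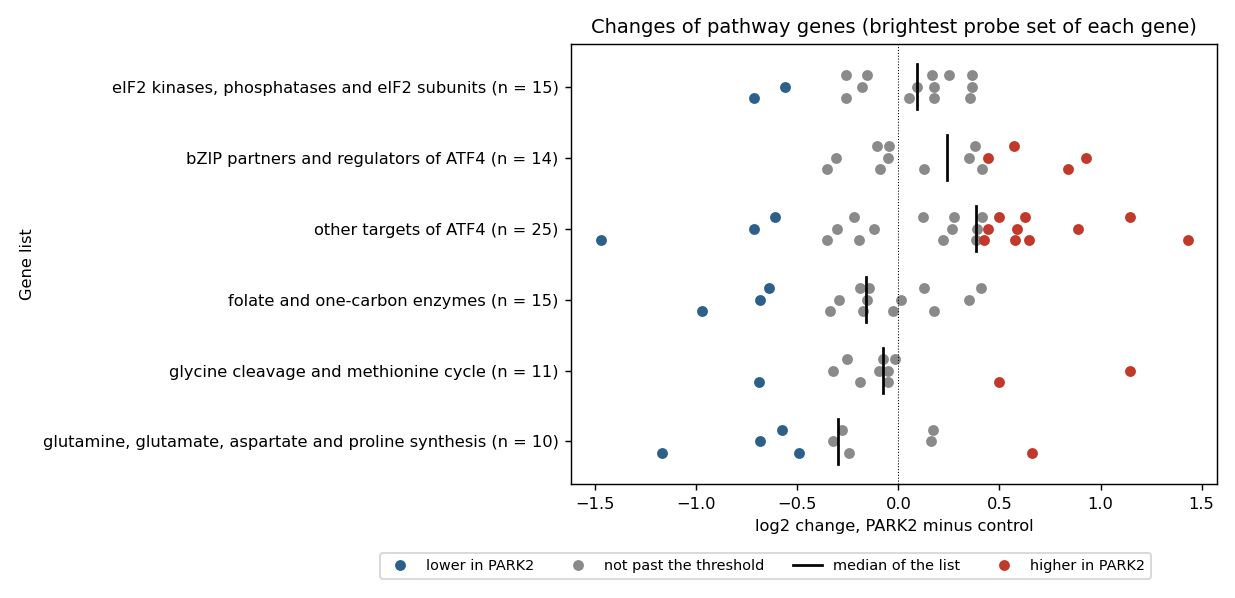
Change of each tested gene of the 6 pathway lists on the log2 scale, 1 point per gene by its brightest probe set, coloured by call, with the list's median as a vertical bar. Medians run from -0.30 for the glutamine, glutamate, aspartate and proline genes to 0.39 for the other targets of ATF4.

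Genes whose pattern over the 6 arrays was most like that of ATF4 and ASNS were found by Pearson's r of log2 values, outside the members and lists. For ATF4 they were C2CD3, KANSL3, SLC8B1, ARID4B and CENPB, with r of 0.988 to 0.991, and their own changes ran from 0.07 to 0.22. For ASNS they were FLRT3, NANOS1, GNAO1, SLC35F1 and IL17RD, with r of 0.997 to 0.999, and their changes ran from 0.94 to 2.13. Likeness over 6 arrays was common, since r was above 0.95 for 86 genes with ATF4 and for 752 with ASNS. The 6 points share the array scaling and, for ASNS, the split between the groups.

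Array medians ran from 16.2 to 19.3 intensity units in PARK2 arrays and 16.7 to 18.4 in control arrays, and 2% trimmed means ran from 141 to 155 in PARK2 arrays and 137 to 168 in control arrays, with control replicate 1 the highest. Of 8 glial and glioma markers 1 was higher and 1 lower. The higher one was GFAP (0.53, limma's adjusted p 0.0485), whose groups overlapped, and the lower one was S100B (-1.39, adjusted p 5.1e-05). VIM was at 8921 ± 523 in PARK2 cells and 8898 ± 444 in control cells (SD, n = 3 each). Of 6 neuronal markers 4 were tested, all of them higher. Their list summed to 3224 to 3422 in PARK2 arrays and 117 to 172 in control arrays, and the 4 higher genes were NEFL (2982 in PARK2 cells and 91.3 in control cells), SYT1 (152 in PARK2 cells and 13.7 in control cells), GAD1 (139 in PARK2 cells and 16.4 in control cells) and SNAP25 (58.7 in PARK2 cells and 14.6 in control cells). The untested RBFOX3 (7.32 in PARK2 cells and 3.47 in control cells) and STMN2 (4.22 in PARK2 cells and 4.58 in control cells) were near 0. Epithelial markers summed to 131 to 138 in PARK2 arrays and 210 to 316 in control arrays, and KRT18 was lower, at 85.9 in PARK2 cells and 208 in control cells (-1.12, limma's adjusted p 2.3e-04). The part of these shifts in the results above was not tested. Endothelial, oligodendrocyte, and myeloid and lymphoid markers each summed to 148 at most on any array, and none of their 8 tested genes was called by limma or had an unadjusted p under 0.05. For the actin control, 3'/5' ratios ran from 3.53 to 5.66 in PARK2 arrays and 3.83 to 5.31 in control arrays. For the GAPDH control they ran from 1.02 to 1.06 in PARK2 arrays and 1.04 to 1.17 in control arrays. The actin ratio was highest in replicate 1 of both groups, and its part in the results above was not tested.

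**Figure D5:**
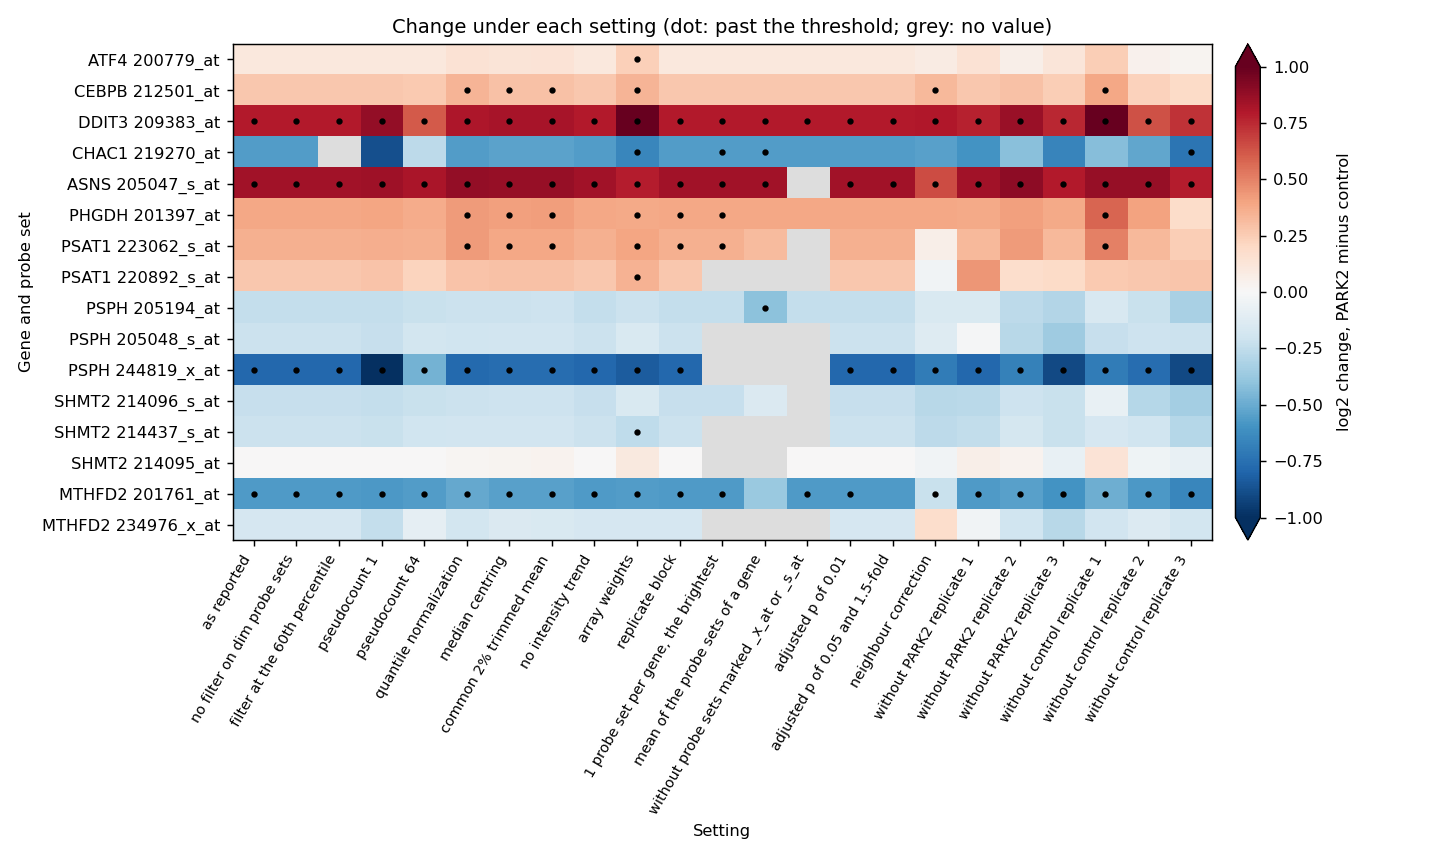
Change of each tested member probe set (rows) under each setting tried (columns), coloured from blue for lower to red for higher in PARK2 cells, with a dot where the threshold was passed. DDIT3 holds its dot in all columns and ASNS in each column that gave it a value, while CEBPB, PHGDH and the brighter probe set of PSAT1 gain a dot under the 3 other scalings, with array weights and without control replicate 1.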

How the data were processed

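Gene expression was measured in 3 PARK2 and 3 control U251 samples. Each array's deposited file column holds 1 linear intensity per probe set. The submitters' processing notes name GCOS and MAS5 without a version or a role. How arrays were scaled is not given in the sources used here. No detection calls were used. The table held 54675 probe sets, 62 of them controls. GEO's platform annotation gave 1 gene symbol to 41091, several to 1801 and none to 11721.

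Intensities were turned into log2(value + 16) with no further normalization. Probe sets with 1 symbol were tested where their mean log2 value reached the 40th percentile (control probe sets left out), which left 26603, with a lowest mean intensity of 9.96. Groups came from the labels, since a check by the transgene's level is not reported here. PARK2 and control arrays were compared with limma 3.58.1 in R 4.3.3, two-sided, with an intensity trend (13.7 prior and 4 residual degrees of freedom) and Benjamini-Hochberg adjustment at 0.05. With 3 arrays a group, the number of arrays limits precision.

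Members, lists, tests and alternatives were chosen with earlier results of these data known. The text names all members. It also names up to 4 called genes per list with the largest change, and the 5 genes most like ATF4 and ASNS. Genes outside this rule (VIM, GFAP, S100B and other markers, TRIB3, ATF3, SHMT1, MTHFD1L, SFXN1, HERPUD1, VLDLR and the other transporters) were named after their values were seen. List genes were matched by gene number in the RefSeq table of GRCh38.p14.

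Pearson correlations of arrays ran from 0.983 to 0.990 inside a group and 0.954 to 0.962 across groups. Deviations from the group means were correlated between same-numbered arrays (r of 0.401, 0.179 and 0.130 for replicates 1, 2 and 3, across probe sets), and other pairs ran from -0.284 to 0.162. The labels do not state this pairing. Values with the replicate block are printed for members and for CEBPG and CTH, whose calls they change, and not for every list gene. With the block, 4 bZIP partners and regulators were higher, CEBPG not among them, and 8 other targets of ATF4.

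The fit was tested on simulated arrays for this comparison with 26603 probe sets, 200 of them changed. It recovered 12.3% of changes of 1.5-fold, 47.1% of 2-fold and 93.8% of 4-fold (the mark first set for these was 95%, and was lowered after this result), and called 2 unchanged probe sets. In the data 20.4% of the probe sets were called, far more than the share changed in the simulation. The adjusted threshold was therefore stricter in the simulation, and these shares do not give the recovery in the data.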

Additional observations from a re-analysis of the deposited data

How the results depend on the processing

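Under 22 other settings the 16 member probe sets gave 331 values, of which 295 kept their direction and their side of the threshold, 28 kept the direction and passed where the reported value did not, 2 lost their call and 6 changed sign. Both lost calls were those of MTHFD2 201761_at (-0.37, adjusted p 0.0576, as the mean of its probe sets, and -0.57 with a 1.5-fold minimum). The sign changes were all in values that were not called: SHMT2 214095_at at -0.037 after the neighbour correction, -0.078 without PARK2 replicate 3, -0.04 without control replicate 2 and -0.078 without control replicate 3 (0.13 at the highest, without control replicate 1), PSAT1 220892_s_at at -0.031 and MTHFD2 234976_x_at at 0.18 after the neighbour correction. The cause of these moves was not tested.

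As reported, 2422 probe sets were higher and 2994 lower, with 2 and 2 of the members and 14 and 13 of the pathway list genes. Counts of higher probe sets were 3716 with quantile normalization and 3732 with a common trimmed mean, and of members 5 with each and with median centring, and of list genes 25, 24 and 23 with quantile normalization, trimmed mean and median centring. Array weights gave 5905 higher and 5352 lower probe sets, 7 and 4 of the members and 29 and 22 of the list genes. The replicate block, with arrays paired by number, gave 2569 higher and 3202 lower probe sets, 4 higher and 2 lower members (PHGDH and PSAT1 were added) and 13 and 13 list genes. It changed no other call of a member. Testing 1 probe set per gene gave 4 higher members, and fewer features were tested. The mean per gene gave 1461 higher and 1884 lower genes. Dropping probe sets marked _x_at or _s_at left 1830 lower probe sets, 1 higher and 1 lower member, and 8 and 6 list genes, with fewer features tested. An adjusted p of 0.01 gave 1433 higher and 1733 lower probe sets and 7 higher list genes. A 1.5-fold minimum left 1 lower member and 9 higher list genes, and no filter also left 9 higher list genes.

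Leaving out 1 array gave 1529 (without PARK2 replicate 3) to 3635 (without control replicate 1) higher and 2166 to 3175 lower probe sets, 2 to 5 higher and 2 to 3 lower members, and 7 to 26 higher and 11 to 14 lower list genes. CHAC1 has no value under the filter at the 60th percentile, nor ASNS without _s_at probe sets. Dim probe sets such as those of CHAC1, ALDH1L2 and FOS limit what their values can show.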
